A study of Mus musculus with 2 samples.

Results

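The genes of the general RNA polymerase II (RNA Pol II) transcription machinery were examined in a map of chromatin contacts held by RNA Pol II in mouse embryonic stem cells (mESCs). They were defined by gene symbol, and the choice was made with earlier results of these data known. Every protein-coding gene of GENCODE vM1 (mm9) whose symbol starts with Polr2, with Gtf2 or with Med followed by a number, together with Tbp and the numbered Taf genes other than Taf12, was taken as a member. This gave 80 symbols of 22238 (82 gene entries, since Taf9 and Med20 each have 2), and 79 of them had at least 1 contact in either library. Taf7l had none.

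Contacts were measured by ChIA-PET, in which DNA fragments that are crosslinked together and pulled down with an antibody are ligated and sequenced. Each paired-end tag (PET) that links 2 peaks, called anchors, records 1 ligation event. The cells were Ronin flox/flox mESCs that carry the tamoxifen-inducible Cre recombinase CreERT2, kept for 4 days in ethanol (control) or in tamoxifen, which leads to deletion of Ronin (Thap11), a zinc-finger factor of housekeeping gene promoters. Both conditions carried the floxed allele and CreERT2, the cells were cultured on gelatin in medium with serum and LIF, and no tamoxifen-treated cells without the floxed allele were analysed here, so the effects of the drug and of Cre cannot be told apart from those of the deletion. The antibody, 8WG16, was raised against the repeats of the carboxy-terminal domain of the largest RNA Pol II subunit, the product of the member Polr2a.

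The general machinery assembles at the core promoter of nearly every protein-coding gene. TFIID, made of the TATA-binding protein TBP and its associated factors (TAFs), recognizes the promoter, TFIIA and TFIIB stabilize it, TFIIF escorts RNA Pol II, and TFIIE and TFIIH open the DNA and release the polymerase. Mediator, with its head, middle, tail and kinase modules, passes signals from bound activators to the polymerase. These are housekeeping genes, and in mESCs Mediator subunits are also known for their role in keeping the pluripotent state.

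The promoters of 2 members are shown because the first stayed at the library ratio and the second was the member called lower. Polr2a, the catalytic subunit, kept the share of PETs of the whole library in the knockout, and Med13, a kinase module subunit, kept far less. Both sequences were read from mm9, from 250 bases before the annotated gene start to 50 bases after it, on the minus strand (chr11:69572090-69572389 for Polr2a and chr11:86171055-86171354 for Med13). Capitals mark the GC box GGGCGG in either orientation, the element bound by Sp1 and related factors.
Polr2a promoter: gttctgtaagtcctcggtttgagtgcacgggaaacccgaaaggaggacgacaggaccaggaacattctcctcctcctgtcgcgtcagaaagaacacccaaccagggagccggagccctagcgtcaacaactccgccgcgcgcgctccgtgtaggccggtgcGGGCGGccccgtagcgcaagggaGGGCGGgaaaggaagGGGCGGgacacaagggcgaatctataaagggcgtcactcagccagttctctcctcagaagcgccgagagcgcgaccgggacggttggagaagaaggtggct
Med13 promoter: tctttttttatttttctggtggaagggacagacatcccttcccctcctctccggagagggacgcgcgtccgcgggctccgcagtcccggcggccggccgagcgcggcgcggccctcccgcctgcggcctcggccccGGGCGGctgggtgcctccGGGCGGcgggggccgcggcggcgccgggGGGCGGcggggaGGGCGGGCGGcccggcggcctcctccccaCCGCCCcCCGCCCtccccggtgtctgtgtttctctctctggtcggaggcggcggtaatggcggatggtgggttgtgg

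The Polr2a window held 3 GC boxes and the Med13 window 7, with overlapping copies counted separately, and neither held the box CCAAT. Over the machinery genes, 55 of 80 windows held a GC box (68.75%), against 43.5% of the windows of all 22238 genes. A CCAAT box was found in 35% of the members' windows and in 38.1% of all. Both motifs were searched as these letters on both strands. The members' windows had a median GC content of 59%, against 55% for all genes.

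The Ronin-binding motif, the sequence that Ronin recognizes through its THAP domain, was found in the promoter window of 1 member, Med24 (1.25% of 80), against 0.926% of all genes. The search took only exact matches to the published consensus, on both strands. Copies that differ from it were not counted, and Ronin binding was not measured here. The motif's inner letters ACTACA, which are part of the full motif, were found in 13 of 80 windows (16.25%), against 10.9% of all windows. Inside the anchors of the members, 2 copies of the full motif lay in all, and they are printed with 15 bases on each side and the motif in capitals. The copy at Med24 (chr11:98590818-98590832, plus strand) lay outside the gene, 76 bp from its start, in an anchor of each library. The copy in an anchor near Gtf2f1 (chr17:57129383-57129397, plus strand) lay 297 bp from the start of the neighbouring gene Clpp. Among anchors within 1 kb of a member, only a knockout anchor held it. Control anchors farther from the members were not searched for this copy.
Med24 copy: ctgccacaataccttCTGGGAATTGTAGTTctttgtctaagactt
Gtf2f1 anchor copy: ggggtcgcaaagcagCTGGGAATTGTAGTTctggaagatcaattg

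Of 180 member anchors in control, 1 held the motif (0.556%, exact binomial 95% interval 0.0141 to 3.06), against 1.08% of all 27757 anchors. In the knockout it was 2 of 128 (1.56%, 0.190 to 5.53), against 1.34% of 17539. Med24, whose product belongs to the Mediator tail, had 4 PETs in control and 1 in the knockout.

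Each condition is represented by 1 library, for which 2 experiments had been pooled. With no replicates to set against each other, every comparison below is between 2 libraries. The control library held 156097 PETs in 128267 interactions and the knockout library 65276 PETs in 44328, or 41.8% of the control PETs (95% interval 41.4 to 42.2). This ratio includes the depth of the libraries, which cannot be told apart from a change in contacts. Intervals of ratios are exact conditional binomial intervals and, like those of shares, cover counting error only. In both libraries, 97.9% to 98.3% of the interactions rested on a single PET. All 11 stem cell markers in the annotation had PETs (902 in control and 288 in the knockout in all), as did 1 of 9 fibroblast markers, Fn1 (148 and 54). The files hold contacts and no transcripts, so the loss of Ronin could not be checked with them, and the Thap11 gene itself had 109 and 46 PETs.

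The members took part in 3600 interactions with 3771 PETs in control and in 1404 interactions with 1508 PETs in the knockout. The knockout thus held 40.0% of the control PETs of the members (37.6 to 42.5), and all protein-coding genes together held 40.7% (40.4 to 41.1). The number of interactions stood at 39.0% for the members (36.6 to 41.5) and at 34.5% for all genes. Within chromosomes the members' PETs went from 338 to 131, which is 38.8% (31.4 to 47.6), against 45.4% for all genes. These counts take every deposited pair. The authors took pairs with 3 independent PETs as high-confidence, and left interchromosomal Ronin contacts out of their later analyses as noisier. Of the members' interactions, 19 in control and 6 in the knockout had 3 or more PETs.

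Fewer PETs were counted in the knockout than in control at 68 of 79 members, 4 were equal and 7 had more. Over all 12749 genes with PETs, 88.9% had fewer and 7.27% more. After scaling to equal library totals, 38 members were lower and 41 higher, where 60.8% of all genes were lower and 39.2% higher. The median log2 ratio of knockout over control, scaled in this way and with a pseudocount of 1, was 0.03 over the members and −0.24 over all genes with PETs. The 95% interval of the members' median, from the ranks of the members, ran from −0.22 to 0.36. It takes members as separate draws, although some share an anchor, and covers neither counting error nor spread between libraries. It is no test of the members against all genes. With no scaling, the medians were −1.17 and −1.32.

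Contacts were spread unevenly over the members. In control, 12 members had 100 PETs or more, 18 had 1 to 9, and the median was 20.5. In the knockout, 2 members reached 100 PETs, 39 had 1 to 9, and the median was 8. Taf6l had the most PETs in control, with 496, and in the knockout Taf6l and Polr2g had 173 each, from 1 anchor that spans both genes. The exact interval of the knockout share of control lay wholly below 100% for 43 members and wholly above it for 2, and it included 100% for 33. Over the 12502 genes with control PETs it lay wholly below for 49.6% and wholly above for 0.728%, with the whole library at 41.8%.

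**Figure D1:**
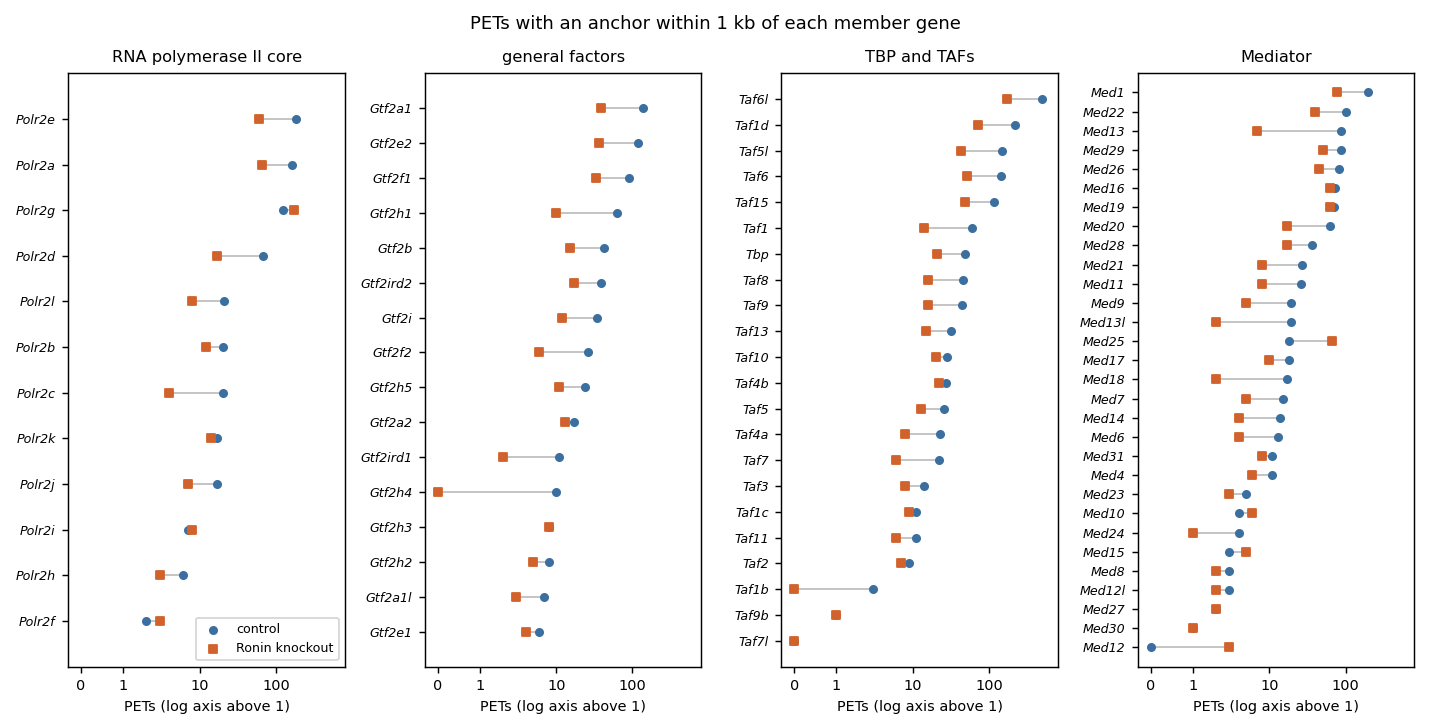
PETs of each of the 80 member genes in the control (blue circles) and Ronin knockout (orange squares) libraries, by complex and ordered by control PETs, on an axis that is linear below 1 and logarithmic above it. Where both values are equal the square covers the circle, and 68 members have the square to the left of the circle.

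Each gene was tested by a two-sided exact binomial test of its PETs against the knockout share of all PETs, 29.5%, with Benjamini-Hochberg adjustment over 12749 genes. A call therefore means a change relative to the library total. At an adjusted p under 0.05, 1 member was called lower (2.23% of all genes were) and 4 were called higher (2.01% of all genes). Without adjustment, 6 members passed in each direction, against 8.13% and 4.74% of all genes. In simulated libraries of this size, the test recovered 43 of 100 genes lowered to 0.25 of their level. It recovered 95 of 100 genes raised 4-fold. The changed genes were drawn only from those above a minimum PET count, so recovery at genes with fewer PETs was not simulated. Falls could pass unseen even above that count.

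The RNA Pol II core, the 12 subunits of the enzyme, held 646 PETs in control and 374 in the knockout, or 57.9% (50.8 to 65.9). Polr2a, which encodes the catalytic subunit with the carboxy-terminal domain (chr11:69547499-69572139), had 162 PETs in control and 65 in the knockout, 40.1% (29.6 to 53.8). Polr2e, a subunit shared with RNA polymerases I and III (chr10:79498694-79502540), had 182 and 60, 33.0% (24.2 to 44.4). Both stayed close to the ratio of the libraries, with adjusted p-values of 1 and 0.58 in the exact binomial test.

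Polr2g, which encodes a subunit of the stalk of the enzyme (chr19:8867619-8873047), had 125 PETs in control and 173 in the knockout, and was called higher (138%, 109 to 176, adjusted p = 7.7e-22, exact binomial test). Without this gene, the core held 521 and 201 PETs, 38.6% (32.6 to 45.5), and the anchors behind the call are described below. Polr2d, which encodes the other stalk subunit, had 67 and 17, and Polr2b, the second largest subunit, had 20 and 12. Polr2c had 20 and 4, Polr2l 21 and 8, and Polr2j 17 and 7, none of them called.

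Polr2i and Polr2f, small subunits, had slightly more PETs in the knockout (7 and 8, and 2 and 3), with exact intervals that include 100%. Polr2k had 17 and 14, of which 11 and 9 came from 1 interaction with the Kntc1, Rsrc2 and Zcchc8 locus on chromosome 5. Polr2h had 6 and 3.

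The general factors, the products of the 16 Gtf2 genes, held 639 PETs in control and 212 in the knockout, 33.2% (28.3 to 38.8). This interval lies below the ratio of all PETs, 41.8%. Counted by interactions, the group stood at 33.5% (28.5 to 39.2), an interval that includes the 34.5% of all genes. No gene of this group had more PETs in the knockout than in control, 15 had fewer and 1, Gtf2h3, was equal. No member of the group was called.

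The subgroups did not differ beyond their intervals. TFIIA genes held 162 and 55 PETs (34.0%, 24.5 to 46.4), TFIIB 42 and 15 (35.7%, 18.4 to 65.7) and TFIIE 123 and 40 (32.5%, 22.2 to 46.8). TFIIF genes held 117 and 39 (33.3%, 22.6 to 48.3) and TFIIH genes 112 and 34 (30.4%, 20.0 to 44.9). The TFII-I family, DNA-binding factors that are not part of the basal machinery despite their symbols, held 84 and 31 (36.9%, 23.6 to 56.3).

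Gtf2a1, which encodes the large precursor of TFIIA, had the most PETs of the group in both libraries, 138 and 39 (28.3%, 19.3 to 40.6, adjusted p = 0.30, exact binomial test). Gtf2e2, the small TFIIE subunit, had 117 and 36, and Gtf2f1, the large TFIIF subunit, had 91 and 33. Within TFIIH, the core subunit gene Gtf2h1 (chr7:54051473-54079170) had 62 and 10 (16.1%, 7.37 to 31.7), with an unadjusted p of 0.0027 and an adjusted p of 0.061 in the exact binomial test. Gtf2h4, another TFIIH core subunit gene, had 10 PETs in control and 0 in the knockout, where a count of 0 allows up to 3 PETs. Its adjusted p was 0.34 by the exact binomial test, and 11.2% of all genes with PETs in control had none in the knockout.

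Gtf2h3 had 8 PETs in each library, Gtf2ird1 11 and 2, and Gtf2f2 26 and 6. Gtf2f2, the small TFIIF subunit, spread its PETs over 10 anchors in control and 4 in the knockout. Gtf2e2 had 10 and 5 anchors and Gtf2h2 4 and 5, and most genes of the group had 1 or 2.

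TBP and the TAFs held 1519 PETs in control and 570 in the knockout, 37.5% (34.0 to 41.3). Tbp itself (chr17:15636852-15665343) had 49 and 21, 42.9% (24.4 to 72.8). Of the 22 genes, 20 had fewer PETs in the knockout, Taf9b had 1 in each library and Taf7l none in either. None was called.

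Much of the group's total came from genes whose products work outside TFIID. Taf6l and Taf5l, subunits of the SAGA coactivator, had 496 and 147 PETs in control and 173 and 43 in the knockout (34.9% and 29.3%). Taf1d, a subunit of the RNA polymerase I factor SL1, had 217 and 72 (33.2%, 25.1 to 43.5), and Taf15, an RNA-binding protein, 116 and 49 (42.2%). The 9 members outside the RNA Pol II machinery, which include the TFII-I family, together held 1072 PETs in control and 377 in the knockout, 35.2% (31.2 to 39.6). Without these, the remaining 71 members stood at 2745 and 1307, 47.6% (44.5 to 50.9), but the 1 knockout anchor with 173 PETs that spans Taf6l is still counted there for Polr2g, while the control anchor of 472 PETs at Taf6l is not. Without Polr2g as well, they stood at 2622 and 1135, 43.3% (40.3 to 46.4), and with the anchors of both libraries merged, as described below, at 36.5% (34.3 to 38.9).

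Among the TFIID subunits proper, Taf6 had the most PETs, 142 and 51 (35.9%, 25.6 to 49.8). Within 1 kb of its start it had 142 and 11 and was called lower (adjusted p = 2.1e-09, exact binomial test), where 1 control anchor of 29.5 kb stood against 2 knockout anchors, with 42 and 11 PETs, of which only the second reached the start. Taf1, the largest TFIID subunit, had 59 and 14 (23.7%, 12.2 to 43.0, adjusted p = 0.40, exact binomial test). Taf4b, a germ-cell and mESC variant of Taf4a, kept more, with 27 and 22 (81.5%, 44.2 to 149). The intervals of Taf1 and Taf4b do not overlap, but neither gene differed from the library ratio after adjustment (0.27 for Taf4b in the exact binomial test). Taf1b, an SL1 subunit, had 3 and 0. The TAF genes not named here had between 9 and 46 PETs in control.

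Mediator genes held 1023 PETs in control and 531 in the knockout, 51.9% (46.7 to 57.7), and the modules differed. The head stood at 346 and 164 (47.4%, 39.1 to 57.2) and the middle at 379 and 165 (43.5%, 36.0 to 52.4). The tail held 191 and 189 (99.0%, 80.5 to 122) and the kinase module 109 and 14 (12.8%, 6.80 to 22.5). The tail and kinase intervals overlap neither each other nor those of the other modules, and few genes carry these values. With the anchors of both libraries merged, the tail stood at 42.1% (35.3 to 50.0), which overlaps the head at 36.9% and the middle at 41.0%, and the kinase module at 17.1% (9.93 to 28.0). Without Med25 and Med16 the tail held 100 and 61 PETs, 61.0% (43.6 to 84.7), and without Med13 the kinase module held 22 and 7, 31.8% (11.5 to 77.1). Most of what was left of the tail came from Med29, with 86 and 50 PETs. With merged anchors Med29 had 162 and 50 (30.9%).

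Med13 (chr11:86080535-86171104), which links the kinase to the core of Mediator, was called lower, with 87 PETs in control and 7 in the knockout (8.05%, 3.14 to 17.3, adjusted p = 2.7e-05, exact binomial test). Its control PETs came from 14 anchors along the gene, led by 33 PETs in an anchor shared with the 3' neighbour Ints2, by 23 at the gene start and by 10 inside the gene. In the knockout there were 5 anchors with 1 to 3 PETs each, of which the anchor over the gene start had 3. Counting anchors within 1 kb of the gene start alone left 23 and 3 PETs, and the call was lost (adjusted p = 0.43, exact binomial test).

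Its paralogue Med13l had 19 and 2 PETs (10.5%, 1.19 to 43.6, adjusted p = 0.40, exact binomial test). Med12, the kinase activator, had 0 and 3, and its paralogue Med12l 3 and 2, all at or under the 3 PETs that a count of 0 allows. The kinase genes Cdk8 and Cdk19 are not members by symbol.

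Among the tail and head genes, 3 were called higher, of which Med25 and Med19 changed side when the anchors of both libraries were merged, as given below. Med25 (chr7:52134761-52147779), a tail subunit that binds activators, had 18 PETs in control and 66 in the knockout (367%, 215 to 656, adjusted p = 7.0e-18, exact binomial test). Med19 (chr2:84518559-84528372), counted here with the head, had 70 and 63 (90.0%, 63.0 to 128, adjusted p = 0.00083, exact binomial test). Med16 (chr10:79357452-79371683), a tail subunit, had 73 and 62 (84.9%, 59.5 to 121, adjusted p = 0.0028, exact binomial test).

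Med1, the middle subunit that binds nuclear receptors, had the most PETs of Mediator, 197 and 78 (39.6%, 30.1 to 51.7). Med22 had 100 and 40, and Med29 86 and 50. Med20 had 62 and 17, and Med18 17 and 2 (11.8%, 1.32 to 49.6). Med10 had 4 and 6, and Med15 3 and 5, both with intervals that include 100%. The other Mediator genes had between 1 and 36 PETs in control, apart from Med26, described below.

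**Figure D2:**
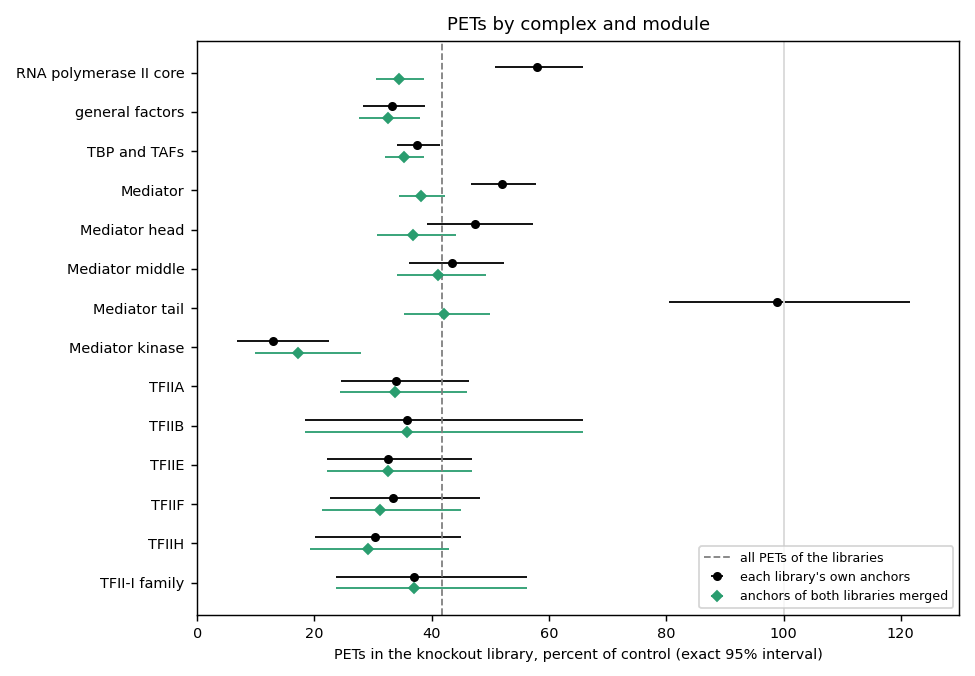
PETs in the knockout library as percent of control for each complex and module, with exact 95% intervals, counted with each library's own anchors (black circles) and with the anchors of both libraries merged where they overlap (green diamonds). The dashed line marks all PETs of the libraries at 41.8%, and the core and the Mediator tail move from 57.9% and 99.0% to 34.4% and 42.1% when anchors are merged.

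The anchors of each library were peaks called in that library, and at several members their boundaries differed between libraries. The median width of the member anchors was 4.74 kb in control and 9.58 kb in the knockout, against 3.28 and 4.74 kb for all anchors. A gene was linked to an anchor that came within 1 kb of it, so a boundary that moves can add or remove a whole anchor's PETs. To take this out, overlapping anchors were joined across the libraries, and the merged anchors were linked to the genes. This alternative was chosen after the values were seen.

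With merged anchors, the control count changed for 20 of 79 members (25.3%, against 13.4% of all genes) and the knockout count for 6 (7.59%, against 8.95%). Of the 4 members called higher, 3 turned to the other side of the library ratio, and Med16 alone remained called higher (0.549% of all genes were). Of the 256 genes called higher among all genes, 69 remained so and 95 turned.

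Polr2g and Taf6l lie in 1 merged locus (chr19:8765142-8927966, 162.8 kb) with 15 protein-coding genes. In control it held 3 anchors, with 99, 26 and 472 PETs, of which the largest came no closer to Polr2g than 15.9 kb from its start. In the knockout a single anchor of 162.7 kb with 173 PETs covered the locus. Counted together, the locus had 592 PETs in control and 173 in the knockout, 29.2% (24.5 to 34.7). Relative to all PETs it was lower, with an adjusted p of 0.0031 in the exact binomial test (0.973% of all genes were called lower with merged anchors).

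At Med25, a neighbouring control anchor of 71.4 kb with 182 PETs began 14.4 kb from the Med25 start, just beyond 1 kb from the end of the gene. In the knockout the corresponding anchor, with 60 PETs, began 12.3 kb from the start, within the gene. The anchors over the Med25 start itself held 17 PETs in control and 6 in the knockout. With merged anchors Med25 had 200 and 66 PETs (33.0%, adjusted p = 0.67, exact binomial test).

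At Med19, the control anchor at the gene had 70 PETs and 2 further anchors downstream had 2 and 95, where the knockout library had 1 anchor of 77.1 kb with 63. Merged, Med19 had 166 and 63 PETs (38.0%, adjusted p = 1 in the exact binomial test). Med29 likewise went from 86 to 162 control PETs, with 50 in the knockout (30.9%). Med13 was still called lower, with 89 and 12 (13.5%, adjusted p = 0.0053, exact binomial test).

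**Figure D3:**
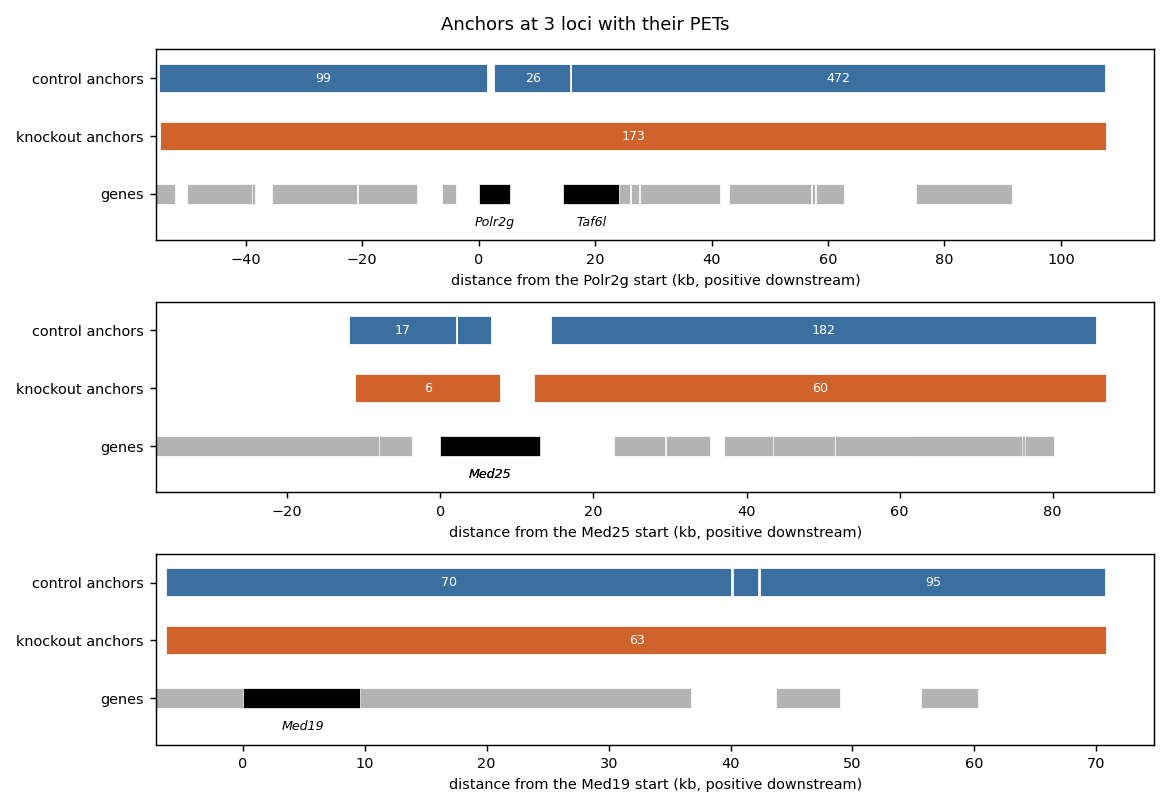
Anchors of the control (blue) and knockout (orange) libraries at the loci of Polr2g, Med25 and Med19, placed by distance in kb from the start of each gene, with protein-coding genes in grey and members in black. Numbers are the PETs of each anchor over 5 kb wide, and the knockout anchors join or extend across gaps that separate anchors in control.

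With merged anchors, the members held 4199 PETs in control and 1532 in the knockout, 36.5% (34.4 to 38.7). The core stood at 34.4% (30.6 to 38.7), the general factors at 32.5% (27.7 to 38.0), TBP and the TAFs at 35.2% (32.0 to 38.7) and Mediator at 38.2% (34.5 to 42.2). The intervals of these 4 groups overlap. Fewer PETs in the knockout were counted at 71 of 79 members, against 91.1% of all genes.

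**Figure D4:**
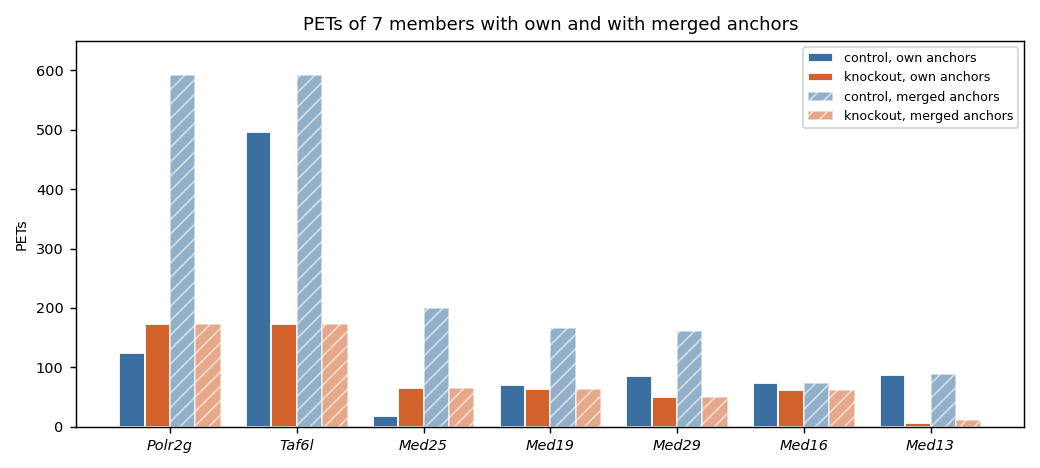
PETs of 7 members in control (blue) and knockout (orange), counted with each library's own anchors (solid) and with merged anchors (hatched). Polr2g goes from 125 and 173 PETs to 592 and 173, and Med16 keeps 73 and 62 either way.

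Most contacts of the members rested on a single PET, and 77 control and 23 knockout interactions had 2 or more. The strongest joined an anchor at Med16 and Cfd on chromosome 10 to an anchor at Sugp2, a gene for a splicing-factor-like protein, on chromosome 8, with 53 PETs in each library. The 2 anchors, 4.04 and 4.56 kb wide in control, shared no identical stretch longer than 15 bp. Without this interaction Med16 had 20 PETs in control and 9 in the knockout, 45.0% (18.0 to 103), where with it the gene was called higher. Within 1 kb of its start, Med16 had 15 and 6.

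Med26, a Mediator subunit that recruits elongation factors, had 81 and 45 PETs, and its strongest contact differed between libraries. In control 15 PETs joined Med26 to Mau2, a cohesin loading factor gene 2519 kb away on chromosome 8, and in the knockout 20 PETs joined an anchor at Cherp and Med26 to Psmd9 and Wdr66 on another chromosome. The longest identical stretch between the anchors was 40 bp in the first pair and 98 bp in the second. Without these, Med26 had 66 and 25 PETs, 37.9% (22.9 to 60.8).

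The Polr2k interaction with Kntc1, Rsrc2 and Zcchc8 had 11 PETs in control and 9 in the knockout, with a stretch of 72 bp in common. Taf5l was joined to the Chchd1 locus by 3 and 5 PETs, with an identical stretch of 100 bp, and Taf4b to Mrps27 and Ptcd2 by 3 and 3, with 73 bp. Gtf2f2 had 5 PETs in control with a region on chromosome 5 that lies near no protein-coding gene. The part of such shared stretches in these counts was not tested one by one. Without all pairs that share 100 bp or more, the members stood at 39.9% of control.

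Of the 3600 control interactions of the members, 70 were found again in the knockout with both anchors overlapping (1.94%, 1.52 to 2.45), against 1.36% of all interactions (1.30 to 1.42). Among interactions with 2 or more PETs it was 8 of 77 for the members (10.4%, 4.59 to 19.4), against 26.3% of all (24.5 to 28.2). Among those with a single PET it was 1.76% and 0.922%. Member anchors were wider than anchors in general, as given above, and the part of width in these shares was not tested.

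Interchromosomal contacts made up 91.0% of the members' PETs in control (90.1 to 91.9) and 91.3% in the knockout (89.8 to 92.7). Over all interactions they made up 84.2% and 81.4% of PETs, and over the interactions counted once each 90.4% and 88.6%, close to the members' 91.3% and 91.0%. Intrachromosomal interactions of the members spanned a median of 12982 kb in control and 11817 kb in the knockout, against 10312 and 4549 kb over all interactions and 11234 and 5808 kb over those with a gene. Of 313 in control, 55 spanned under 100 kb and 177 over 10 Mb, and of 126 in the knockout, 22 and 66. Over all interactions, 2917 of 12330 in control and 1367 of 5037 in the knockout spanned under 100 kb, and 6203 and 2236 over 10 Mb.

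The partner anchor, at the other end, lay within 2.5 kb of a gene start in 68.4% of the members' control interactions (66.8 to 69.9) and in 72.3% of those in the knockout (69.9 to 74.6). Over the partners of all genes it was 69.3% and 72.7%, values that lie within the members' intervals. The partner joined to the most members was an anchor at Gm10800 on chromosome 2 (chr2:98506240-98507615), with 32 PETs in 22 control interactions to 20 member loci, and 9 interactions in the knockout. This anchor also had the most partners of all anchors in control, 1776. Without pairs at Gm10800 and its neighbour Gm10801, the members stood at 40.2% of control. Histone gene clusters on chromosome 13 and Frmd8 on chromosome 19 followed, with 7 to 10 member interactions each in control.

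**Figure D5:**
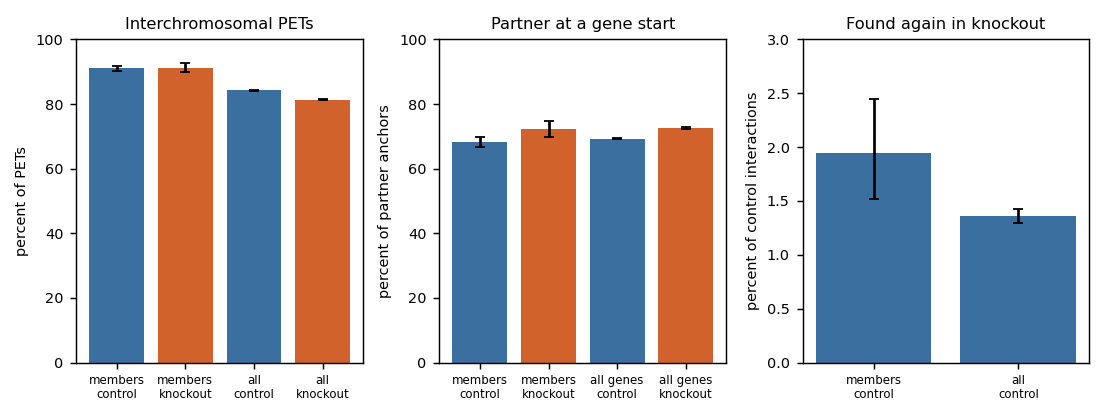
Share of PETs that are interchromosomal, share of partner anchors within 2.5 kb of a gene start, and share of control interactions found again in the knockout, each in percent with exact binomial 95% intervals, for members and for all interactions or genes. Bars are blue for control and orange for knockout, and the partner shares of members and of all genes nearly coincide at 68.4% and 69.3% in control.

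Interactions between members made up a small share of their contacts. The share to be expected from the number and width of member anchors was not computed. In control, 34 interactions with 37 PETs joined different members (0.944% of member interactions, 0.655 to 1.32), 27 of them between chromosomes, and in the knockout 8 interactions with 9 PETs did (0.570%, 0.246 to 1.12), all between chromosomes. The only pairs with more than 1 PET were Taf6l with Polr2g (3 and 2 PETs between neighbouring anchors) and Taf6l with Polr2a (2 PETs) in control, and Gtf2a1 with Med19 (2 PETs) in the knockout. In the knockout 1 anchor spans Taf6l and Polr2g, so contacts between these genes could not be counted there. Taf15 with Med29 was the only pair of members present in both libraries, with 1 PET in each. Taf1d, Taf6, Gtf2ird2, Taf6l and Med29 recurred among the control pairs, and Med29, Med25, Taf15 and Gtf2e2 among those in the knockout.

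Other genes of RNA Pol II transcription, among them TFIIH kinase and helicase subunits, elongation factors and polymerase assembly factors, were set beside the members. Of 47 such genes in the annotation, 46 had PETs, 1973 in control and 897 in the knockout, 45.5% (42.0 to 49.2). None was called lower and 5 were called higher (2.23% and 2.01% of all genes), Cobra1, Ell3, Mllt1, Tceb2 and Gpn1. With merged anchors, Tceb2, a subunit of elongin, was the only gene of these still called, with 176 and 128 PETs (adjusted p = 0.00080, exact binomial test). The sums of this list were not computed with merged anchors. The 22 genes of RNA polymerases I and III held 922 and 277 PETs, 30.0% (26.2 to 34.4), below the interval of the members.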

How the data were processed

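Linkers were removed by the authors with cutadapt, reads were aligned to mm9 with Bowtie 1.1.1, and peaks were called with MACS 1.4.2. The authors also collapsed duplicates, removed intrachromosomal PETs under 4 kb and merged 2 experiments per condition. The deposited values are raw PET counts per pair of anchors, PET counts per anchor (not used as occupancy), a signed score for the distance between anchors, and the authors' p-value for each pair, raw and adjusted.

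An interaction was linked to a gene when an anchor lay within 1 kb of it, and was counted once per gene or list. Gene tests, intervals and scaling (total of control over total of knockout, 2.39) were computed in Python 3.11.15 (scipy 1.17.1, pandas 2.3.3 and numpy 2.4.6), sequences with pysam 0.24.0 on mm9, and plots with matplotlib 3.10.9. The gene test was tested on simulated data. The members and lists were chosen with earlier results of these data known. Named genes were those with the most PETs in each complex, the called ones, the 8 lowest and 8 highest scaled ratios among members with at least 10 PETs, and those in the strongest or mutual interactions. Genes near Med25, Med19 and Polr2g were named after their values were seen. Depth was 156097 PETs in control and 65276 in the knockout. Calls of single genes among those of RNA polymerases I and III are not reported here.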

Additional observations from a re-analysis of the deposited data

How the results depend on the processing

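No paired analysis was possible because each condition has 1 merged library. The members' PETs in the knockout as percent of control, 40.0%, moved outside the interval of that value in these cases. They were 45.3% for pairs with an adjusted p-value under 0.05, 51.2% for pairs with at least 2 PETs, 43.0% for anchors within 1 kb of the gene start, 47.6% without the 9 members outside the machinery, 45.6% without Taf6l and 36.5% with merged anchors. The values without the outside members and without Taf6l are one-sided, since the knockout anchor over Taf6l is still counted for Polr2g. Without Polr2g too they were 43.3% and 41.9%, and without the outside members on merged anchors 36.5%. The interactions moved to 44.3%, 29.9%, 43.2%, 46.2%, 44.3% and 35.5% in the same 6 cases. Members with fewer PETs numbered 20 of 28 with at least 2 PETs per pair. They numbered 38 of 79 when scaled to equal totals (60.8% of all genes) and 45 when scaled to equal intrachromosomal totals. The median log2 ratio was −0.40 for intrachromosomal pairs, the same as over all genes. It was −1.04 for pairs with at least 2 PETs (−1.58 over all genes) and −1.17 unscaled (−1.32 over all genes).

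Members called lower numbered 0 for intrachromosomal pairs (17 of all 9683 genes tested) and 2 for interchromosomal pairs (211 of 12681). They numbered 2 with at least 2 PETs per pair (149 of 3489) and 2 within 5 kb (295 of 13446). With merged anchors there were 3 (124 of 12749), of which Polr2g and Taf6l are the same locus. At a null share of 0.5 there were 37, where the knockout share of all PETs was 29.5%. That null ignores the smaller knockout library. Over all genes with control PETs, 49.6% had an exact unadjusted interval wholly below control. Among genes with at least 10 PETs there were 2, and the count over all genes is not reported here. Members called higher numbered 0 for intrachromosomal pairs (30 of 9683) and 0 with at least 2 PETs (46 of 3489). They numbered 1 with merged anchors (70 of 12749) and 2 at a null share of 0.5. An exact unadjusted interval wholly above control was found for 0.728% of all genes with control PETs. For the RNA Pol II core the moved values were 43.9% (intrachromosomal) and 34.4% (merged). For the general factors they were 39.7% (intrachromosomal) and 25.0% (at least 2 PETs). For TBP and the TAFs they were 44.1% (adjusted p-value), 20.9% (at least 2 PETs), 51.2% (gene start) and 42.0% (without outside members). For Mediator they were 35.2% (intrachromosomal), 87.9% (at least 2 PETs), 44.6% (gene start), 43.8% (5 kb) and 38.2% (merged). Control interactions found again were 2.67% with anchors extended by 5 kb and 10.4% with at least 2 PETs.

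Within 1 kb of the gene start, Taf6 replaced Med13 as the member called lower. Single members that changed side were Polr2g (7 knockout PETs against 17 for intrachromosomal pairs, 173 against 592 merged), Med16 (6 against 15 at the gene start), Med25 (6 against 17 at the gene start, 66 against 200 within 5 kb and merged), Taf6l (173 against 26 at the gene start) and Med19 (63 against 166 merged). Merging anchors, leaving out Gm10800 and Gm10801, and leaving out Polr2g were chosen after seeing the data. Other than the merged counts, whose construction shows what changed, the cause of these moves was not tested. Shares of interchromosomal PETs, of partners at gene starts and of the other transcription genes kept within their intervals under the alternatives run for them. For the other transcription genes the only alternative was intrachromosomal pairs. Their sums were not computed with merged anchors, so their stability under merging is not known. With 1 library per condition, depth limits what can be seen for the 18 control and 39 knockout members with 1 to 9 PETs.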
